A study of Homo sapiens with 4 samples.

Results

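The endoplasmic reticulum (ER) chaperones and the sensors of the unfolded protein response were examined in RNA sequencing of the human glioblastoma (GBM) cell lines U251 and U87. The set was a list of 43 genes, picked by their known function out of the 58735 genes in the files, at a time when earlier results of these data were known. It held 15 chaperones and cofactors, 10 disulfide enzymes, 6 proline isomerases, 8 genes of ER degradation, and the 3 stress sensors with XBP1. Of the 43 members, 42 averaged 1 FPKM or more across the libraries and were tested, as were 12949 genes in all.

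Each line was sequenced as Control and after treatment with Bru (brusatol, a plant-derived compound with anti-tumor activity), so that 4 libraries stand for 4 conditions. Per the text of the study, cells received Bru at the IC50 of the drug for 48 h, while the labels give neither dose nor time and describe the other libraries only as control. With a single library per condition, the ratio of Bru to Control in a line had no replicate check. In whole-culture RNA, fewer cells of a kind and less RNA per cell cannot be told apart.

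Proteins that are secreted or inserted into membranes fold in the ER, where chaperones bind unfinished chains, disulfide enzymes link cysteines, and proline isomerases turn slow peptide bonds. Chains that fail to fold are sent back to the cytosol and degraded. When unfolded chains build up, the sensors ERN1 (IRE1), EIF2AK3 (PERK) and ATF6 signal to the nucleus, where ATF6 and spliced XBP1 raise the chaperone genes while ATF4 acts in the PERK arm.

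The values were FPKM, which is fragments scaled to gene length and a library size. Levels of different genes compare only as far as the deposited length fits the transcripts expressed, which was not checked. The length of a gene is the same in Bru and Control. The whole reads behind the FPKM were recovered from FPKM and gene length, and added up to between 17083896 and 21453561 per library. Of the markers of glial and glioma cells, VIM (606 to 701 FPKM) and CD44 (94.5 to 125 FPKM) were high in all 4 libraries. SOX2 and NES were at 129 and 125 FPKM in U251 Control, but SOX2 was listed at 0 and NES at 1.46 FPKM in U87 Control. GFAP was low, at 2.42 and 1.08 FPKM in U251 Control and Bru and at 0.215 and 0.147 FPKM in U87. S100B did not exceed 0.296 FPKM in any library. The 9 markers of leukocytes, endothelium and epithelium summed to between 0.703 and 1.01 FPKM per library. The 6 glial and glioma markers summed to 1083 FPKM in U251 Control and 843 FPKM in U251 Bru. NES was at 50.6 FPKM and SOX2 at 91.2 FPKM in U251 Bru. In U87 the 6 markers summed to 785 FPKM in Control and 743 FPKM in Bru, nearly all of it VIM and CD44. These sums were lower beside the members, and their part in the results was not tested.

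The promoter of HSPA5 (BiP, the Hsp70 of the ER lumen and the binding partner that holds the sensors inactive) is shown first, because the ER stress element was searched for in every member. The 250 bases before its start are printed from RefSeq on GRCh38.p14, 5′ to 3′ on the gene's strand, with capitals marking the element, which reads CCAAT, then 9 bases of any kind, then CCACG.
HSPA5, chr9:125241344-125241593 (- strand): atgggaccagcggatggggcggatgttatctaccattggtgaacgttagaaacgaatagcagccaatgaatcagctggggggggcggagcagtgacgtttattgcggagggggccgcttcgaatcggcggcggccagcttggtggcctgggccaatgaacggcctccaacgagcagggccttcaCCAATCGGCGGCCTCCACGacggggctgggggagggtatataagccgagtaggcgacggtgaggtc

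Promoters of 300 bases, from 250 before to 50 after each start, were given for 38 of the 43 members, and not for PDIA3, FKBP10, FKBP14, DERL1 and DERL3. The ER stress element (ERSE) was found on either strand in 7 of these 38 members (18.4%), against 0.0916% of the 27305 genes with a promoter. Besides HSPA5 they were the lectin chaperones CALR and CANX, the Hsp90 of the ER HSP90B1, which held 2 copies, the cofactor CRELD2, the disulfide enzyme PDIA6 and the transcription factor XBP1. Each match is shown with 10 bases on both sides, in capitals where it matches. Matches on the other strand read CGTGG, 9 bases, ATTGG.
CALR, chr19:12938374-12938412 (+ strand): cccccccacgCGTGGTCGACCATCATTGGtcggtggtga
CANX, chr5:179698768-179698806 (+ strand): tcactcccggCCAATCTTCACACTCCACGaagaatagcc
CRELD2, chr22:49918544-49918582 (+ strand): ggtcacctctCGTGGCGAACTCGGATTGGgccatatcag
HSP90B1, chr12:103930206-103930244 (+ strand): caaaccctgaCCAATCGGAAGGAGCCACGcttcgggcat
HSP90B1, chr12:103930311-103930349 (+ strand): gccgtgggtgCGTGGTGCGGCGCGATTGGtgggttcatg
PDIA6, chr2:10812843-10812881 (- strand): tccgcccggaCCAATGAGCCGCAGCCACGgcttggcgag
XBP1, chr22:28800593-28800631 (- strand): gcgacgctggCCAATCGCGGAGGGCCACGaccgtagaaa

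The shorter form ERSE-II, which reads ATTGG, 1 base, CCACG, was found in 3 of the 38 members (7.89%) and in 0.0696% of all genes with a promoter. These members were HERPUD1, a membrane protein of ER degradation, HYOU1, a large Hsp70-like chaperone, with 2 copies, and SDF2L1, a partner of the ER J-domain proteins.
HERPUD1, chr16:56932015-56932045 (+ strand): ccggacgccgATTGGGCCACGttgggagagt
HYOU1, chr11:119057264-119057294 (- strand): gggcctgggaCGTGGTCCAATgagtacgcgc
HYOU1, chr11:119057370-119057400 (- strand): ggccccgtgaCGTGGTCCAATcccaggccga
SDF2L1, chr22:21642104-21642134 (+ strand): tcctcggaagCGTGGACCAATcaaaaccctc

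The unfolded protein response element (UPRE), TGACGTGG, was found in 4 of the 38 members (10.5%) and in 0.927% of all genes with a promoter. Its copy in HYOU1 overlapped the ERSE-II at the same place, the other copies stood alone, and that of TXNDC11 lay just after the start.
DNAJC10, chr2:182716122-182716149 (+ strand): gcgcacaccgCCACGTCAacctaaacct
HYOU1, chr11:119057376-119057403 (- strand): gctggccccgTGACGTGGtccaatccca
TXNDC11, chr16:11742835-11742862 (- strand): gcggcgcggcTGACGTGGagcgtccggg
TXNDC5, chr6:7910152-7910179 (- strand): cactggcggcTGACGTGGcgctcggcgg

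Either form of the ER stress element was present in 10 members, whose median log2 ratio of Bru to Control was -0.74 (U251) and -0.30 (U87). In the 28 members whose promoter held neither form, the medians were -0.43 and -0.29. The 10 members with a match ranged from -1.05 for PDIA6 to -0.08 for CANX in U251. PDIA4, PDIA5 and P4HB, which had the lowest ratios of all members in U251, had no match to any of the 3 motifs. Among genes that are no members, 9 tested genes held the ERSE with a median of -0.02 (U251) and -0.08 (U87), and for 10 tested genes with the ERSE-II both medians were -0.07. A match describes these letters only and was not shown to be a site in use. The shares over all genes with a promoter include the members, which were 7 of the 25 genes with an ERSE. Because the members were picked by known function, the difference between the shares is a description and not a test.

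**Figure D1:**
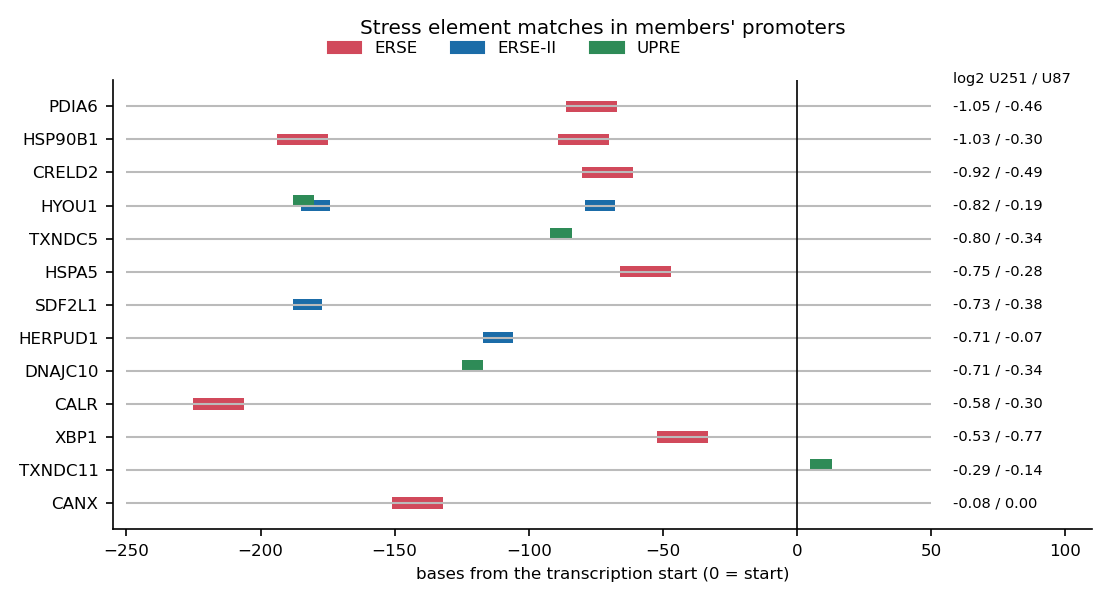
Positions of the 3 motifs in the promoters of the 13 members that held one, in bases from the transcription start, with the log2 ratio of Bru to Control in U251 and U87 at the right. Members are ordered by the U251 ratio, from PDIA6 at -1.05 to CANX at -0.08.

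Most members were lower in Bru than in Control in both lines, and the shift was larger in U251. The log2 ratio was below 0 in 38 of 42 members in U251, where 52.1% of all genes tested lay below 0, and in 38 of 42 in U87, where 56.7% did. A total of 36 members were lower in both lines, against 37.5% of all genes. The median log2 ratio of the members was -0.58 in U251, a level 33.3% lower, and -0.29 in U87, a level 18.3% lower, while the median of all genes was -0.03 and -0.04. The summed FPKM of the members went from 2275 to 1433 in U251 and from 2437 to 1979 in U87.

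Counting error was small against these ratios. The exact 95% interval of the ratio, which covers counting error only, lay below 0 for 37 of 42 members in U251, against 35.9% of all genes tested, and for 34 of 42 in U87, against 28%. It lay above 0 for DERL2 and ERN1 in U251, against 30.9% of all genes, and for ERN1 alone in U87, against 15.7%. It held 0 for 3 members in U251 and 7 in U87, against 4306 and 7284 of the 12949 genes. Scaled by the total of recovered reads instead, the interval lay below 0 for 32 members in each line. It lay above 0 for ERP44, SYVN1, DERL2 and ERN1 in U251 and for CANX and ERN1 in U87. The shares over all genes were not computed under this scaling, so the shares above do not apply to it. The median of all genes under it was 0.05 in U251 and 0 in U87. Below, a member is said to rise or fall where its interval lay off 0, which compares the libraries and not the conditions.

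A fall of more than 2-fold was seen in U251 for 9 members, against 5.44% of all genes, and in U87 for 0 members, against 1.41%. No member exceeded 2-fold upward, against 3.36% of all genes in U251 and 1.92% in U87. The 9 members were HSP90B1, PDIA4, PDIA5, PDIA6, P4HB, FKBP9, FKBP10, EDEM1 and EIF2AK3. The interval lay wholly beyond 2-fold for 3 of them, PDIA4, PDIA5 and P4HB. Scaling by the total of recovered reads left these same 3 members past 2-fold, without a share of all genes computed under it. In U87 the closest to the limit was PDIA5, at -0.99, which passed it with a pseudocount of 0.01.

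**Figure D2:**
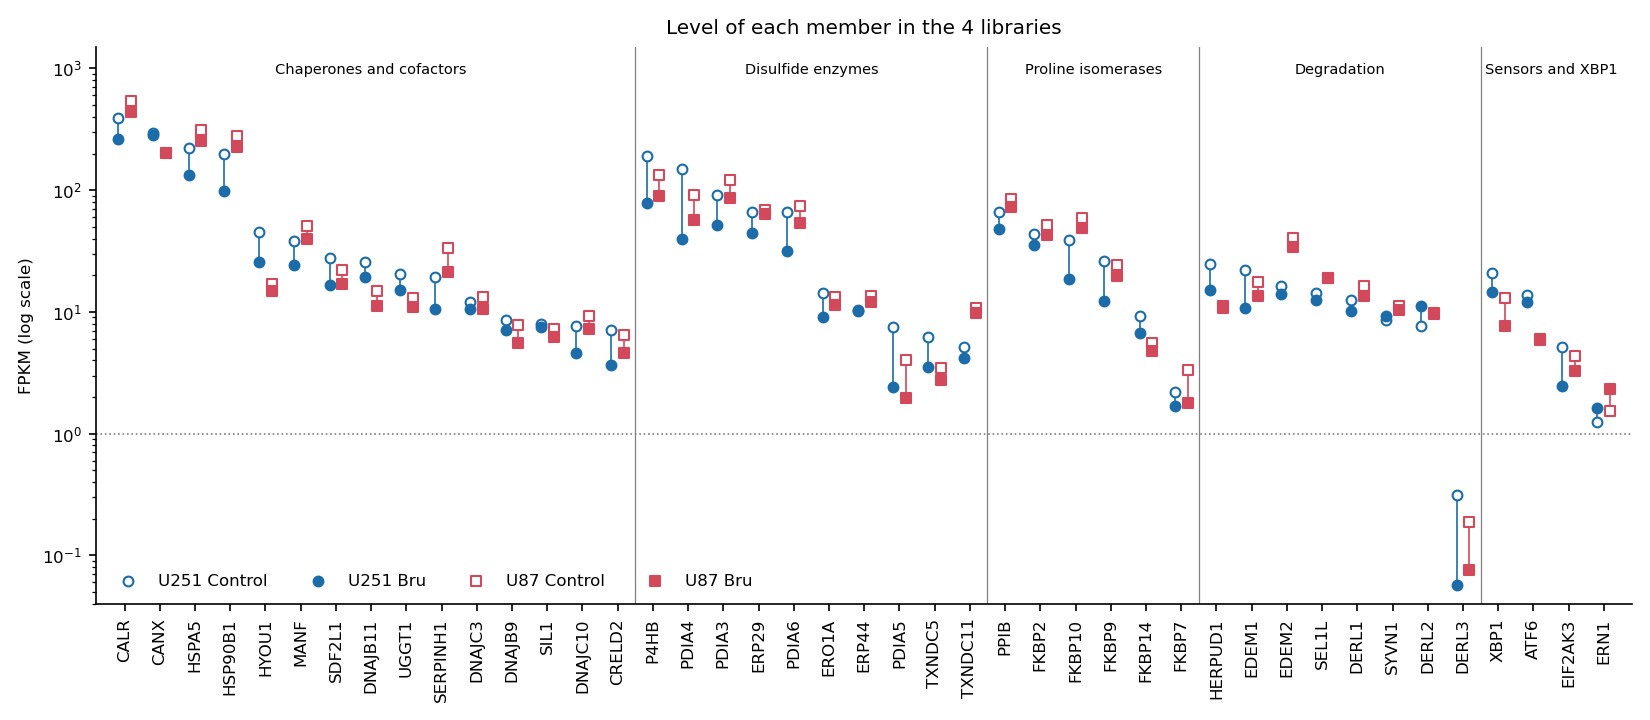
FPKM of the 43 members on a log scale in U251 Control (open circles), U251 Bru (filled circles), U87 Control (open squares) and U87 Bru (filled squares), grouped by role, with a dotted line at an FPKM of 1. Filled symbols stand under the open ones for most members, and DERL3 is the member under the dotted line.

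All 15 chaperones and cofactors had a ratio below 0 in U251, against 52.1% of all genes, with an interval below 0 for 14, against 35.9%. The medians were -0.64 for U251 and -0.33 for U87. HSP90B1 was at 199 FPKM (Control) and 97.6 FPKM (Bru) in the U251 libraries, and at 278 and 226 FPKM in those of U87. Its log2 ratio was -1.03 (interval -1.07 to -0.99) for U251 and -0.30 (-0.32 to -0.27) for U87. Both lines thus held less HSP90B1 RNA in the Bru library, with the larger gap in U251.

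SERPINH1 (HSP47), the collagen-specific chaperone, was at 19.3 and 10.7 FPKM in U251 Control and Bru and at 33.7 and 21.3 FPKM in U87. Its log2 ratio was -0.85 (-0.95 to -0.76) in U251 and -0.66 (-0.74 to -0.59) in U87. It was the chaperone with the largest fall in U87. CRELD2, at 7.09 and 3.69 FPKM in U251 and 6.51 and 4.59 FPKM in U87, had ratios of -0.92 (-1.13 to -0.76) and -0.49 (-0.69 to -0.32). Its levels were low and its intervals wide, and they lay below 0 in both lines.

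HSPA5 was at 222 and 133 FPKM in U251 Control and Bru and at 310 and 256 FPKM in U87, with ratios of -0.75 and -0.28. For CALR, the member with the highest FPKM in both Control libraries, the levels were 395 and 264 FPKM in U251 and 539 and 437 FPKM in U87. Its ratios were -0.58 and -0.30. The chaperone that changed least was CANX, the membrane-bound partner of CALR, with 297 and 282 FPKM in U251 and 202 FPKM in both U87 libraries. Its ratio was -0.08 (-0.10 to -0.06) in U251 and 0.00 (-0.02 to 0.03) in U87, so the pair of lectin chaperones moved by different amounts. Under the scaling by total reads the CANX ratio was 0.01 (-0.01 to 0.03) in U251 and 0.04 (0.02 to 0.07) in U87. UGGT1, which tags unfinished glycoproteins for another round with CALR and CANX, had ratios of -0.45 and -0.24.

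The J-domain partners of HSPA5 differed among themselves. DNAJC10, which also reduces disulfides, had the lowest ratio of them in U251 at -0.71 (-0.80 to -0.64), with -0.34 (-0.41 to -0.27) in U87. DNAJB11 was at -0.40 and -0.39, so that the lines were alike to within its intervals. DNAJC3 and DNAJB9 were lower in U87 than in U251, at -0.33 against -0.20 and at -0.49 against -0.27, with intervals of the lines that overlapped. SIL1, the nucleotide exchange factor of HSPA5, was at -0.09 (-0.26 to 0.07) in U251 and -0.22 (-0.41 to -0.04) in U87, whereas HYOU1, which has the same activity, was at -0.82 and -0.19. MANF, a secreted stress-induced cofactor, was at -0.64 and -0.36 and SDF2L1 at -0.73 and -0.38.

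The 10 disulfide enzymes showed the lowest median of the 5 roles, at -0.81 in U251 and -0.40 in U87. Their summed level went from 607 to 275 FPKM in U251 and from 534 to 388 FPKM in U87. PDIA4 (chr7:149003062-149028641 on GRCh38, minus strand), a disulfide isomerase with several thioredoxin-like domains, had 148 FPKM in Control and 39.8 FPKM in Bru for U251, against 91.6 and 57.3 FPKM for U87. Its reads numbered 10194, 2419, 5424 and 3269 in the same order. The log2 ratio of -1.89 (-1.96 to -1.83) in U251, a level 73.1% lower, was the lowest of any member and within the lowest 0.965% of all genes tested. In U87 the ratio was -0.68 (-0.74 to -0.61).

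P4HB (chr17:81843159-81860694, minus strand), the founding disulfide isomerase and a subunit of collagen prolyl hydroxylase, was at 193 and 78.6 FPKM in U251 and at 134 and 89.9 FPKM in U87. It fell by 1.29 in U251 (-1.33 to -1.26) and by 0.58 in U87 (-0.62 to -0.54) on the log2 scale. PDIA5 (chr3:123067062-123225227, plus strand), a disulfide isomerase that acts on ATF6, was at 7.55 and 2.44 FPKM in U251 and at 4.01 and 1.97 FPKM in U87. Its ratio was -1.59 (-1.88 to -1.39) in U251 and -0.99 (-1.33 to -0.73) in U87, the lowest value of any member in U87. PDIA5 thus fell in both lines by amounts whose intervals just failed to overlap.

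PDIA6, which attenuates ERN1 signalling, was at 65.9 and 31.7 FPKM in U251 and at 73.8 and 53.7 FPKM in U87. Its ratio was -1.05 (-1.12 to -0.99) in U251 and -0.46 (-0.52 to -0.40) in U87. PDIA3, the isomerase that works with CALR and CANX, had ratios of -0.82 and -0.48. TXNDC5 was at -0.80 and -0.34 and ERP29 at -0.59 and -0.11. ERO1A, the oxidase that recharges the isomerases, was at -0.65 (-0.76 to -0.56) and -0.22 (-0.32 to -0.12). By contrast, ERP44, which retains ERO1A in the early secretory pathway, was at 0.05 (-0.08 to 0.18) in U251 and at -0.19 (-0.31 to -0.07) in U87, with 0.14 (0.01 to 0.27) in U251 when scaled by total reads. TXNDC11 was at -0.29 and -0.14.

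All 6 proline isomerases had an interval below 0 in both lines, against 35.9% of all genes in U251 and 28% in U87. When scaled by total reads, the interval of FKBP7 in U251 held 0. The medians of the 6 were -0.47 and -0.26. FKBP10 (FKBP65), which folds collagen, was at 39.1 and 18.7 FPKM in U251 and at 58.5 and 49.2 FPKM in U87. Its ratio was -1.06 (-1.15 to -0.97) in U251 and -0.25 (-0.31 to -0.19) in U87. FKBP9, at 26.1 and 12.3 FPKM in U251 and 24.4 and 19.7 FPKM in U87, gave -1.07 (-1.18 to -0.98) and -0.31 (-0.40 to -0.22).

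FKBP7 stood apart from these, with 2.21 and 1.68 FPKM in U251 and 3.31 and 1.77 FPKM in U87. Its ratio was -0.38 (-0.78 to -0.01) in U251 and -0.86 (-1.27 to -0.53) in U87, and its intervals overlapped between the lines. PPIB, the ER cyclophilin, was at -0.47 and -0.23, FKBP14 also at -0.47 and -0.23, and FKBP2 at -0.29 and -0.28.

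The 7 degradation genes tested had medians of -0.21 (U251) and -0.12 (U87), and went in more than one direction. EDEM1, a lectin that routes trimmed glycoproteins to degradation, was at 22.1 and 10.8 FPKM in U251 and 17.7 and 13.6 FPKM in U87. It fell by 1.02 (-1.12 to -0.94) in U251 and by 0.38 (-0.47 to -0.29) in U87. Its relative EDEM2 was at -0.21 (-0.39 to -0.04) and -0.25 (-0.37 to -0.14).

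HERPUD1 was at 24.9 and 15.2 FPKM in U251 and at 11.2 and 10.7 FPKM in U87. The ratio was -0.71 (-0.81 to -0.62) in U251 and -0.07 (-0.19 to 0.06) in U87, so that a fall was measured in U251 and none beyond counting error in U87. DERL1, a channel component of retrotranslocation, had 12.5 and 10.1 FPKM in U251 and 16.4 and 13.4 FPKM in U87, with ratios of -0.31 (-0.41 to -0.21) and -0.29 (-0.38 to -0.20). Its relative DERL2 went from 7.61 to 11.3 FPKM in U251, a ratio of 0.56 (0.45 to 0.68), and was at 9.66 and 9.73 FPKM in U87, a ratio of 0.01 (-0.11 to 0.13). DERL2 was the member with the highest ratio in U251.

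The ubiquitin ligase SYVN1 (HRD1) and its partner SEL1L moved little. SYVN1 was at 0.11 (-0.02 to 0.24) and -0.12 (-0.25 to 0.00), with an interval holding 0 in both lines (0.19, 0.06 to 0.32, in U251 when scaled by total reads), and SEL1L at -0.19 (-0.27 to -0.11) and -0.01 (-0.08 to 0.06). DERL3 was left out by the filter, with 25 reads (Control) and 4 reads (Bru) in the U251 libraries and 13 and 5 in those of U87, and lies within the span of SMARCB1 on the other strand.

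The sensors did not move as one. ERN1, the kinase and endoribonuclease that splices XBP1, was at 1.26 and 1.61 FPKM in U251 and at 1.53 and 2.33 FPKM in U87. Its ratio was 0.34 (0.13 to 0.60) in U251 and 0.57 (0.39 to 0.82) in U87, which made it the one member that rose in both lines. XBP1, its target, was at 21.0 and 14.5 FPKM in U251 and at 13.1 and 7.63 FPKM in U87, and fell by 0.53 (-0.66 to -0.41) and by 0.77 (-0.96 to -0.60). Gene-level FPKM do not separate spliced from unspliced XBP1.

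EIF2AK3, the kinase that phosphorylates eIF2α, was at 5.19 and 2.44 FPKM in U251 and at 4.34 and 3.29 FPKM in U87. It fell by 1.06 (-1.31 to -0.87) in U251 and by 0.39 (-0.62 to -0.19) in U87. ATF6, the membrane-bound transcription factor cleaved in the Golgi, was at 13.9 and 12.1 FPKM in U251 and at 5.92 and 5.96 FPKM in U87, with ratios of -0.19 (-0.28 to -0.10) and 0.01 (-0.13 to 0.15). EIF2AK3 and ERN1, which sense the same stress, thus lay on opposite sides of 0 in both lines.

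Overlapping and copied genes bear on some of these values. For 8 members (CRELD2, DERL2, DERL3, DNAJB9, PDIA5, SIL1, SYVN1 and TXNDC11) an overlapping gene had more than 50% of the member's reads in at least 1 library, and whether the counting used strand is not given in the sources used here. SYVN1 overlaps FAU on the same strand, whose reads numbered 3559 in U251 Control and 6245 in U251 Bru. PDIA5 overlaps SEC22A on the same strand, which had 205 and 253 reads in the same libraries. Strand would not tell the reads of these pairs apart. DERL2 overlaps MIS12 on the other strand, which had 895 and 905. Of 6 genes named as pseudogene copies of members, PDIA3P1 had the most reads relative to its parent, at most 6.74% of those of PDIA3.

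Between the lines, the members' ratio was lower in U251 than in U87 for 33 of 42 members, against 49.1% of all genes. The U251 interval lay wholly below the U87 interval for 24 members, against 18.6% of all genes, and wholly above it for 1 member, DERL2, against 19.4%. For the other 17 the intervals overlapped. The median difference of the log2 ratios, U251 minus U87, was -0.26 over all members and -0.47 over the disulfide enzymes. With 1 library per condition, the line and the library cannot be told apart in this difference.

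**Figure D3:**
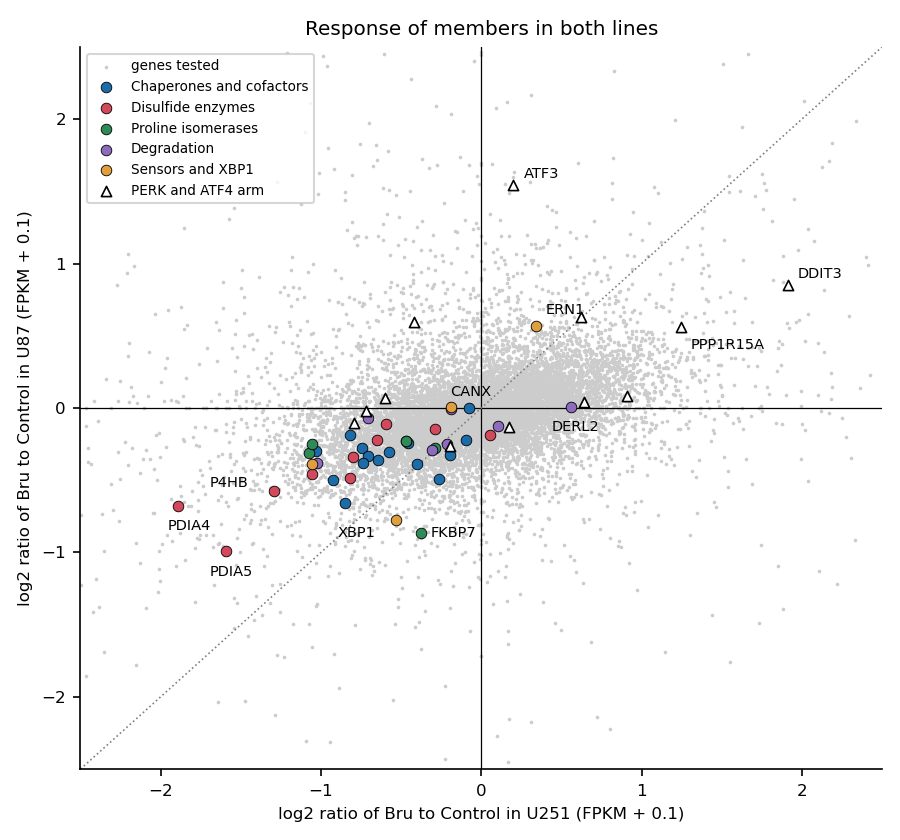
Log2 ratio of Bru to Control (pseudocount of 0.1 FPKM) in U251 (x axis) against U87 (y axis) for all 12949 genes tested (grey), the members coloured by role and the PERK and ATF4 arm as triangles, with the line of equal ratios dotted. Most members lie in the lower left and above the dotted line, that is, further below 0 in U251, and 156 genes lie outside the axes.

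Without treatment the members showed no common shift between the lines. The log2 ratio of U87 Control to U251 Control had a median of 0.09 over the members, against -0.01 over all genes. In U87 22 of 42 members were higher, against 6417 of 12949 genes. EDEM2 (1.32) and TXNDC11 (1.06) were more than 2-fold higher in U87 Control, against 14.5% of all genes. HYOU1 (-1.41), ATF6 (-1.21) and HERPUD1 (-1.14) were more than 2-fold lower there, against 16% of all genes. The members took up 0.846% of all FPKM in U251 Control and 0.863% in U87 Control, and 0.543% and 0.699% in the Bru libraries.

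An effect common to both lines was tested with limma on all genes, with the line as a block. The residual of this fit is the difference in response to Bru between the lines, not a spread of replicates. The SE of a gene was also drawn towards a trend over all genes, so it does not measure that gene's agreement between the lines alone. Of 42 members 22 had an unadjusted p under 0.05, against 14.2% of all genes, and these 22 had a ratio below 0. At a Benjamini-Hochberg adjusted p under 0.05, limma called 0 members, against 0% of all genes (0 of 12949). The lowest adjusted p from limma among members was 0.129, for PDIA5, with a log2 change of -1.29 ± 0.23 (SE), followed by SERPINH1 (0.185, -0.75 ± 0.16) and PDIA4 (0.185, -1.28 ± 0.29). With a mean FPKM of at least 5, limma called 132 of 7578 genes, 1 of them a member, PDIA4, at an adjusted p of 0.0314. A pseudocount of 1 gave 20 genes and 0 members.

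Other genes of the same pathways were read from lists of related genes. Of 30 genes tested in the list named other ER folding genes, 25 were lower in U251 and 25 in U87, against 52.1% and 56.7% of all genes. The medians of these 30 genes were -0.37 and -0.22. The lowest in U251 were NUCB1, a calcium-binding protein of the Golgi, at -1.13 there and -0.34 in U87, and QSOX1, a sulfhydryl oxidase, at -1.09 and -0.59, followed by NUCB2 at -0.84 and -0.60. In U87 the lowest were NUCB2 and QSOX1. The list was drawn broadly and is not limited to proteins of the ER, as NUCB1 shows. Among 22 other ER degradation genes, 18 and 16 were lower, against the same shares of all genes, and the medians were -0.20 and -0.12. There AUP1, a recruiter of ubiquitin enzymes, was at 0.99 and 0.17, UBE2J1 at -0.62 and -0.38 and ERLEC1 at -0.58 and -0.39.

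The genes of the PERK and ATF4 arm went in both directions. Of 12 tested, 7 had an interval above 0 and 5 below 0 in U251, against 30.9% and 35.9% of all genes. In U87 the interval lay above 0 for 5 and below 0 for 1, against 15.7% and 28%. It held 0 there for 6, against 7284 of 12949 genes. The medians of the 12 genes were 0.19 and 0.08. DDIT3 (CHOP), a transcription factor of sustained stress, went from 12.2 to 46.2 FPKM in U251 and from 18.1 to 32.7 FPKM in U87, with ratios of 1.91 (1.74 to 2.10) and 0.85 (0.68 to 1.03). PPP1R15A (GADD34), which reverses eIF2α phosphorylation, was at 1.25 and 0.56, and ATF3 at 0.20 and 1.54. ATF4 itself rose by 0.63 on the log2 scale in both lines. The genes that fell in U251 were VLDLR, at -0.79 there and -0.10 in U87, DDIT4 (-0.72 and -0.02), CHAC1 (-0.60 and 0.07), SESN2 (-0.42 and 0.60) and TRIB3 (-0.19 and -0.26). TRIB3 was the one of them that also fell in U87, and SESN2 rose there. The intervals of TRIB3 ended near 0, at -0.34 to -0.06 in U251 and -0.49 to -0.04 in U87. Intervals scaled by total reads were computed for members only, so these were not checked under that scaling. EIF2AK3 thus fell in libraries in which DDIT3 and ATF4 rose.

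Of 12 other stress transducers, 6 were lower in U251 and 8 in U87, against 52.1% and 56.7% of all genes. MBTPS1, the protease that cleaves ATF6, was at 15.5 and 6.04 FPKM in U251 and at 11.1 and 6.81 FPKM in U87, with ratios of -1.34 (-1.46 to -1.26) and -0.69 (-0.81 to -0.60). ATF6B was at -0.77 and -0.29. CREB3L1 had 1 read in U251 Control and 8 in U251 Bru, so that its ratio of 0.89 there rests on the pseudocount, and it was at -0.18 in U87. MBTPS1 thus fell in both lines, while ATF6 fell in U251 and showed no change beyond counting error in U87.

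Of 35 chaperones of the cytosol and mitochondria tested, 5 were lower in U251 and 18 in U87, against 52.1% and 56.7% of all genes. The medians of the 35 were 0.23 and -0.0040. In U251 the interval lay below 0 for 3 of the 35 and above 0 for 26, against 35.9% and 30.9% of all genes. In U87 it lay below 0 for 8 and above 0 for 11, against 28% and 15.7%. HSPA8, the constitutive Hsp70 of the cytosol, fell in both lines, at -0.51 (-0.54 to -0.48) and -0.21 (-0.23 to -0.18). BAG3 was at -0.44 and -0.06 and HSP90AA1 at -0.26 and 0.15. DNAJB4 was at 0.89 and 0.24, DNAJA3, a mitochondrial J-domain protein, at 0.69 and 0.32, and the inducible Hsp70 gene HSPA1B at 0.58 and -0.62. HSPA1B has a near-identical copy, HSPA1A, so that its reads could be split between them.

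**Figure D4:**
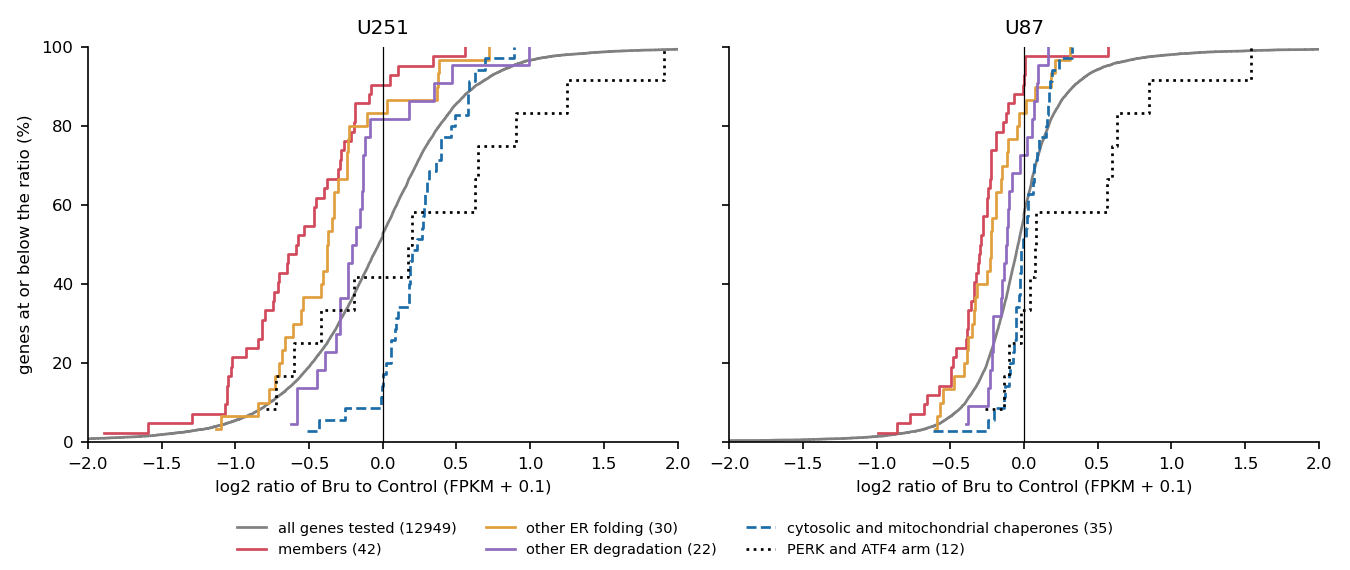
Cumulative share of genes (%) at or below each log2 ratio of Bru to Control (pseudocount of 0.1 FPKM), in U251 (left) and U87 (right), for all genes tested, the members and 4 lists of related genes, with the number of genes in brackets. The members' curve lies left of that of all genes in both panels, with medians of -0.58 and -0.29, and the median of the cytosolic and mitochondrial chaperones was 0.23 and -0.0040.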

How the data were processed

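RNA of the 4 libraries was extracted with Trizol and made into libraries with the NEB Next Ultra kit for paired-end sequencing. The authors deposited FPKM per gene with gene lengths. The submitters' processing notes list HISAT2 2.0.5, StringTie 1.3.3b, featureCounts 1.5.0-p3 and DESeq2 1.16.1, and the build hg18, although the coordinates of all 58735 genes equal those of GENCODE release 29 (GRCh38). FPKM times gene length was a whole multiple of 1 step in 100% of values above 0 (tolerance 0.01 reads). This gave the reads, and the library sizes inside the FPKM, 17406238 to 20974002. These sizes are not the totals of the recovered reads. They were smaller than the total in both Control libraries (20974002 against 21453561 in U251). In both Bru libraries they were larger (18533374 against 17847910 in U251). With these sizes, 3 reads on a gene of 1 kilobase equal 0.143 to 0.172 FPKM.

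Within a line, Bru was divided by Control after adding 0.1 to each FPKM, and the log2 of this ratio was kept for genes whose mean over the libraries was 1 FPKM or more. Past 2-fold means an absolute log2 ratio above 1. Intervals are exact 95% Clopper-Pearson intervals from the reads, without a pseudocount, and cover counting error only. No p-value was computed within a line. The secondary test was limma 3.58.1 (R 4.3.3) on log2(FPKM + 0.1) over the 4 libraries with the line as a block and a trend in the prior, adjusted by Benjamini-Hochberg over all 12949 genes. Its residual has 1 degree of freedom per gene before moderation and holds the difference in response to Bru between the lines. The SE and p-values from limma rest on that difference, drawn towards a trend over all genes that weighed as 5.89 degrees of freedom. They do not rest on a spread between replicates. A gene's SE can thus be smaller or larger than its own difference between the lines would give. Motifs were searched on both strands of RefSeq promoters (35116 promoters, GRCh38.p14), and where a gene has several promoters a match in any of them was counted. Protein features were not analysed here. Scripts (Python 3.11.15, pandas 2.3.3, scipy 1.17.1) were tested on simulated data.

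The members and the lists of related genes were chosen with earlier results of these data known. Full values are given for members past 2-fold in either line, the sensors and XBP1, the 3 members of each role and the 3 genes of each related list with the largest mean absolute log2 ratio, and members with opposite signs in the lines and both intervals off 0. Other members are named so that each is accounted for, and ATF4, VLDLR, DDIT4, CHAC1, SESN2, TRIB3, HSPA8, BAG3 and HSP90AA1 were chosen after their values were seen. Alternatives were pseudocounts of 1 and 0.01, no filter or a mean FPKM of at least 5, rescaling to a median of 0, to TPM or to the total recovered reads, and limma without the block or the trend. The intervals under the scaling to total reads were added after seeing the data.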

Additional observations from a re-analysis of the deposited data

How the results depend on the processing

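No call rests on a replicate, and leaving out a library was not possible with 1 per condition. Of 46 values over the members under the alternatives to the ratios and to limma, 42 kept their direction and stayed within 1.5 times or the spread used. Of 230 values for single members 222 did. These 230 values cover only the 17 members with full values, chosen mostly for large ratios. Members near 0, such as CANX and SEL1L, were mostly outside them. None of the 46 or the 230 values changed sign, which says little about members near 0. The filters on mean FPKM do not enter the ratio of a single member, so values under them could not move. A single member counted as unmoved where the change was no larger than the reach of its own counting interval. EIF2AK3 in U251 (-1.08 to -0.85, across the 2-fold limit) and FKBP7 in U87 (-0.90 to -0.64) thus counted as unmoved. Scaling to the total recovered reads turned the sign of CANX in U251 and of SEL1L in U87, which were near 0, and, chosen after seeing the data, moved the interval of 7 members in U251 and 3 in U87 onto or off 0 (CANX, DNAJB9, DNAJC3, ERP44, FKBP7, EDEM2 and SYVN1, and CANX, SIL1 and ERP29). The same scaling left 3 members past 2-fold in U251 instead of 9 and moved the median there from -0.58 to -0.50, because this scaling raised the median of all genes in U251 from -0.03 to 0.05. A pseudocount of 0.01 put 1 member, PDIA5, past 2-fold in U87 instead of 0. With a mean FPKM of at least 5, limma called 1 member (PDIA4) instead of 0, and 132 genes instead of 0. With a pseudocount of 1 it called 20 genes. Without the line as a block, limma called 0 genes, with 83 at an unadjusted p under 0.05 instead of 1835, and without the trend 0 genes, with 1282. Members with few reads, such as FKBP7, PDIA5 and ERN1, have wide intervals.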
